A study of Homo sapiens with 6 samples.

Results

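The TGF-beta and BMP pathway genes described here are 50 of the 58735 genes in the table of H1155 libraries, chosen by gene symbol as the ligands, latency proteins, antagonists, receptors, SMADs and inhibitors of this signalling family. By role, 21 belong to the TGF-beta and activin arm, 19 to the BMP arm, and 10 act in both arms or outside either. H1155 is a large cell lung cancer line with neuroendocrine features, and RNA from untreated cells grown in DMEM with FBS was sequenced in 3 libraries labelled WT and 3 labelled GFI1-KO. GFI1 is a transcriptional repressor of blood cell development, and the question posed by the design is which transcripts differ between cells that carry it and cells that lost it. For the GFI1-KO cells, the study transfected CRISPR/Cas9 with pairs of guides against the promoter region of GFI1 and sorted monoclonal GFP+ clones. How many clones the libraries come from is not stated, and nothing says that libraries of a group were separate cultures, so the p-values measure only the spread between these libraries, and genotype, clone and any batch of preparation cannot be told apart.

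Ligands of this family bring together type I and type II receptor kinases, and the type I receptor then phosphorylates receptor SMADs, which enter the nucleus with the common SMAD4. TGF-beta, activins and GDF11 signal mainly through SMAD2 and SMAD3, whereas BMPs signal through SMAD1, SMAD5 and SMAD9. The inhibitory SMAD6 and SMAD7, the pseudoreceptor BAMBI and the ID genes are classical transcriptional targets of the pathway, and the first 3 of these damp it in turn. In epithelial cancers TGF-beta is known for growth arrest, matrix production and loss of epithelial traits.

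The counts of GFI1 itself showed no decrease under the label GFI1-KO. The normalized counts, which are counts scaled by the TMM library size, were 157, 117 and 131 in the libraries labelled WT and 166, 178 and 160 in those labelled GFI1-KO. The groups did not overlap, and the level was higher by 0.31 ± 0.12 on the log2 scale (SE, edgeR, adjusted p = 0.0273), a call that DESeq2 did not make (adjusted p = 0.072) and that was lost without WT replicate 2 or 3 or GFI1-KO replicate 2 (0.21, 0.28 and 0.27). It was also lost after correction for GC content and gene length (0.22, adjusted p = 0.13). The edit was aimed at the promoter region, and these counts show no loss of GFI1 RNA under the label GFI1-KO. The reason was not tested, and all directions given here rest on the labels. For the protein, the study shows immunoblots of GFI1 in H1155 cells with and without the deletion, which were not examined here. Library totals ran from 14882914 to 17692882 counts, at which a gene with 3 counts is at the floor of 1 library. Of 11 neuroendocrine markers, all passed the filter on low counts, and their summed FPKM was 797 to 815 in the libraries labelled WT and 1080 to 1100 in those labelled GFI1-KO. The summed FPKM of 7 fibroblast markers, 5 of which were tested and 1 of which (DCN) had no count, was 17.7 to 18.1 and 12.6 to 13.0. That of 9 endothelial and leukocyte markers was 3.57 to 4.0 and 1.84 to 2.12, with 2 tested and CD3E and HBB at 0.

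Across the pathway, SMAD6, SMAD7, BAMBI and 4 of the 7 TGF-beta and activin ligands had higher counts in libraries labelled GFI1-KO. Of the 18 receptors, co-receptors and signalling SMADs 13 were lower, a number that went to 5 after a correction for GC content. At the threshold of 0.05 for the adjusted p (edgeR quasi-likelihood test with Benjamini-Hochberg adjustment over 17514 genes), 38 of the 43 members that passed the filter were called, 20 higher and 18 lower. These libraries differ in most genes: 72.4% of all tested genes were called, 36.5% higher and 35.9% lower, so a call alone says little about a member. With an absolute log2 fold change of at least 1 added, 14 members were higher and 1 was lower, beside 10.2% and 7.29% of all tested genes (17.5% in either direction). The median log2 fold change of the tested members was 0.01, and that of all tested genes was 0.00. In bulk RNA, fewer cells of a kind and less RNA per cell cannot be told apart.

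**Figure D1:**
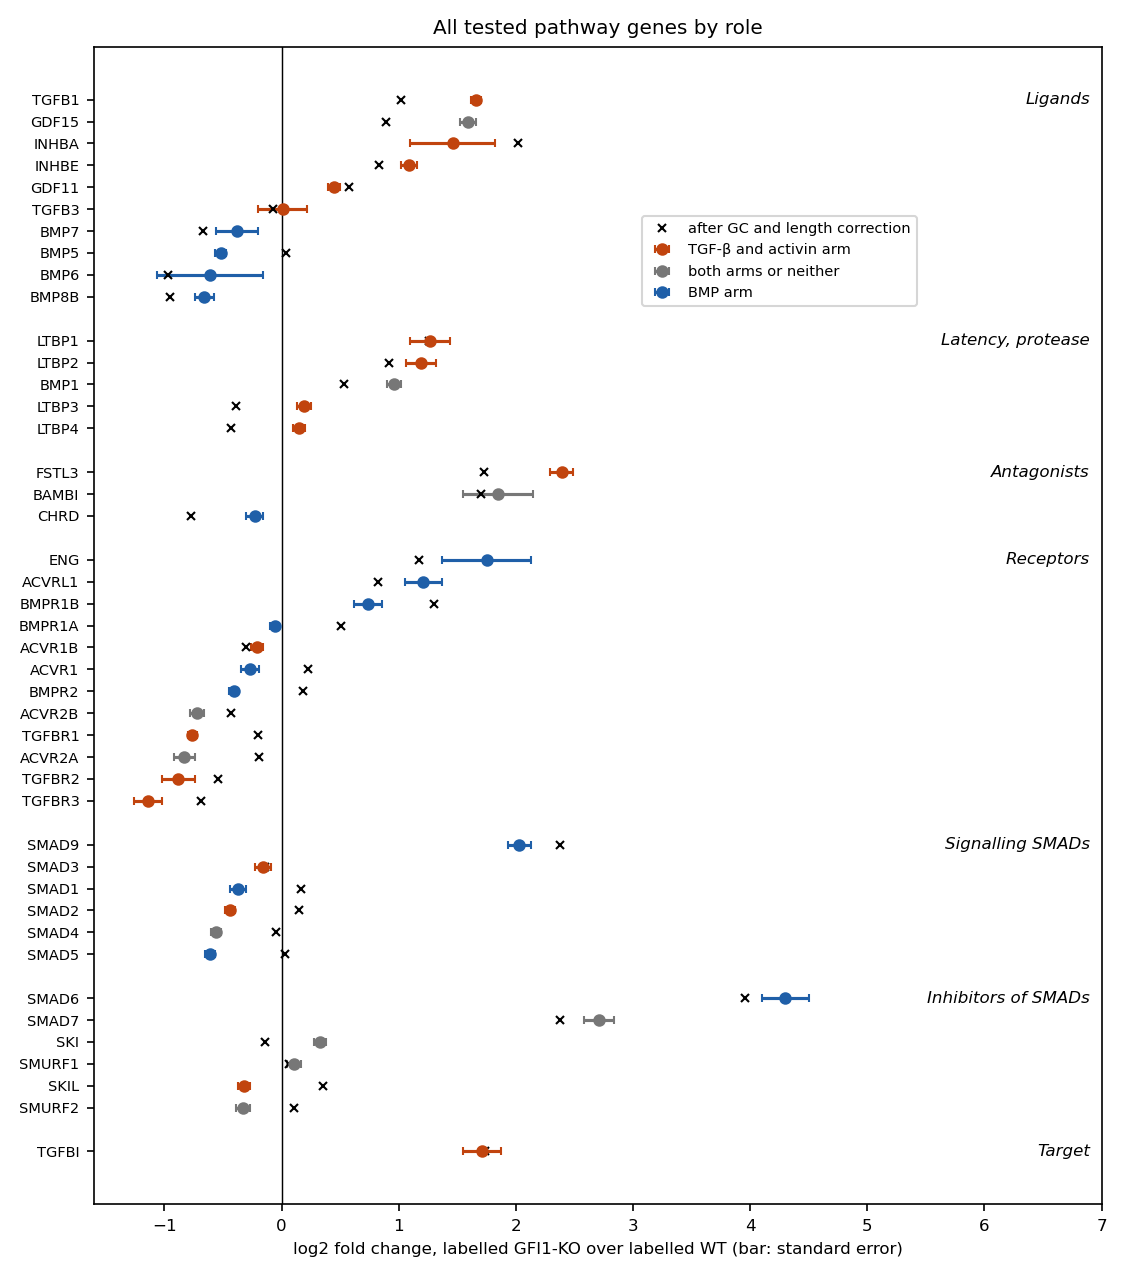
Log2 fold change (x axis, libraries labelled GFI1-KO over those labelled WT, bars are standard errors from edgeR) of the 43 tested pathway genes, grouped by role and coloured by arm. SMAD6 lies farthest to the right at 4.30 and TGFBR3 farthest to the left at -1.14.

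Fold changes followed the GC content of the transcripts, and this bears on each group of members. Spearman's rho between log2 fold change and GC content was 0.574 over 17415 genes and 0.511 over the 43 tested members, as a description across genes of the same libraries. Among members with 30 to 45% GC, 3 were higher and 13 lower of 17, with a median of -0.41 on the log2 scale against -0.39 for all genes in that range. Among members with 55 to 80% GC, 12 were higher and 2 lower of 16, with a median of 1.08 against 0.58. Where the counts were corrected for GC content and gene length, rho fell to 0.0318 over all genes, 23 members were higher and 11 lower, and 62.2% of all genes were called (36.8% higher and 25.4% lower). By at least 1 on the log2 scale, 11 members were then higher and 0 lower, beside 6.27% and 6.47% of all genes. Of the 43 tested members, 24 were called in the same direction with and without the correction and 8 in opposite directions. Values after it are given beside most of the members they concern. The part of GC content in the differences between the groups was not tested.

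**Figure D2:**
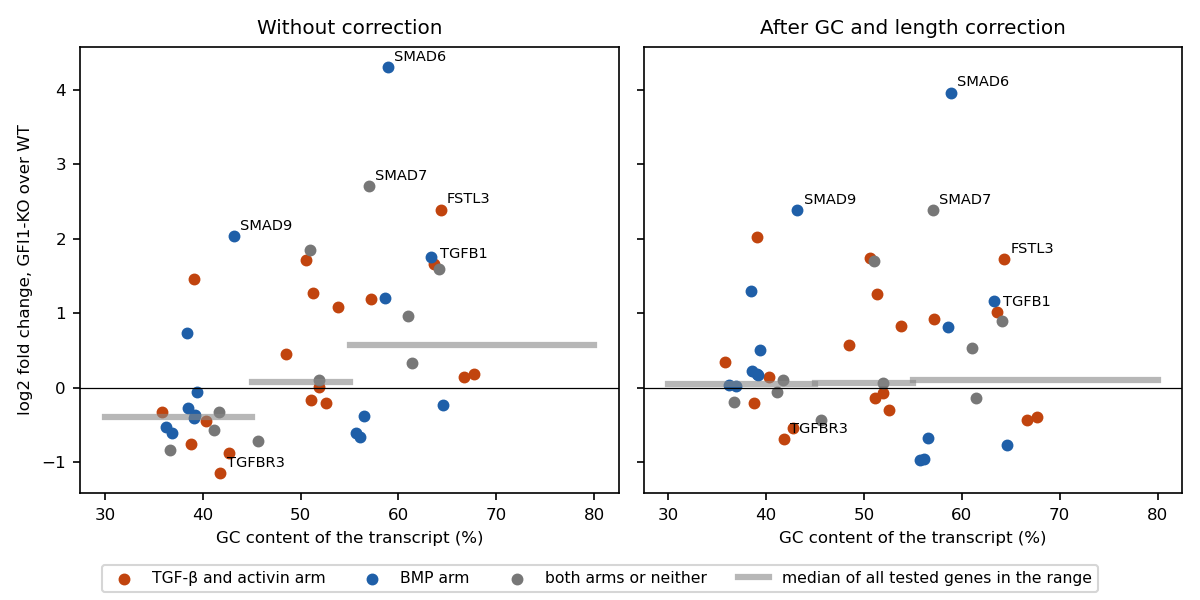
Log2 fold change of the tested members (y axis, libraries labelled GFI1-KO over WT) against the GC content of the longest transcript in percent (x axis), before and after correction for GC content and length. Grey bars are the medians of all tested genes in 3 ranges of GC content, which go from -0.39 over 0.08 to 0.58 before the correction, while SMAD6, SMAD7 and SMAD9 stay far above them in both panels.

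The inhibitory SMADs gave the largest differences among the tested members. SMAD6, which blocks type I receptors of the BMP arm and competes with SMAD4, had 7.17, 15.5 and 10.5 normalized counts in libraries labelled WT and 231, 202 and 224 in those labelled GFI1-KO. Every library labelled GFI1-KO was far above every library labelled WT, where the gene was barely counted. The increase was 4.30 ± 0.20 on the log2 scale, or 19.8-fold in the means (adjusted p = 2.5e-16), and 3.96 after the GC correction. SMAD6 (ENSG00000137834) lies at chr15:66702228-66782848 on the plus strand of GRCh38. SMAD7, the inhibitor of both arms, went from 35.8, 44.3 and 43.0 to 256, 276 and 272 normalized counts. The groups were again wide apart, by 2.71 ± 0.13 on the log2 scale (adjusted p = 1.0e-15) and by 2.38 after the correction. BAMBI, a receptor without a kinase domain that binds ligand without signalling, had 17.4, 12.2 and 12.6 normalized counts in libraries labelled WT and 70.5, 40.7 and 42.4 in those labelled GFI1-KO. Its lowest value in the latter was above its highest in the former, although replicate 1 labelled GFI1-KO stood above the others of its group. The difference was 1.85 ± 0.30 (adjusted p = 4.3e-06) and 1.70 after the correction.

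**Figure D3:**
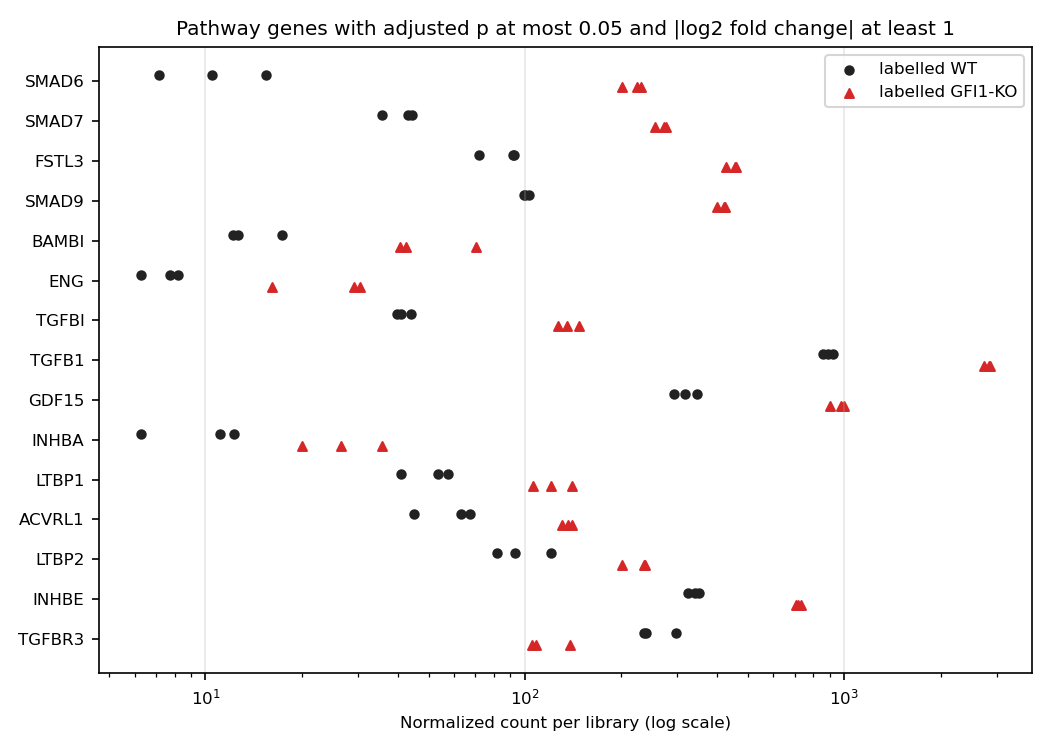
Normalized count per library (x axis, log scale, 1 point per library) of the 15 members with an adjusted p of at most 0.05 and an absolute log2 fold change of at least 1. For all 15 the 3 libraries labelled GFI1-KO lie on 1 side of the 3 labelled WT, and only TGFBR3 has them on the lower side.

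The promoter of SMAD6 is shown because it was the single member promoter that held the palindromic SMAD box, the letters GTCTAGAC, and those of FSTL3, BAMBI, TGFBI and LTBP2 because these members, higher by at least 1 on the log2 scale, held the GC-rich SMAD site GGCGCC. Sequences are from RefSeq on GRCh38.p14, in windows of 250 bases before to 50 after the start of the gene, which were found for 43 of the 50 members, and the capitals mark the searched letters, which read the same on both strands.
SMAD6, chr15:66702213-66702242, plus strand: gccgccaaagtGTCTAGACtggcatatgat
FSTL3, chr19:676255-676284, plus strand: gcggccgggcccGGCGCCtgcccaccccgc
BAMBI, chr10:28677300-28677329, plus strand: gcgcaccagccgGGCGCCccagccgggcgc
TGFBI, chr5:136028865-136028894, plus strand: cacgggttgggaGGCGCCaggcggcccgcc
LTBP2, chr14:74612442-74612471, minus strand: ccggtcgtggcaGGCGCCatctgcccgacc
The SMAD box of SMAD6 began 12 bases before the RefSeq start and spanned the gene start of the deposited table, and the same letters occurred in 55 of all 27305 promoters (0.201%). The GC-rich site was in 16 of the 43 member promoters (37.2%) and in 19.0% of all promoters, and it was present in members that were higher and in members that were lower, SMAD4 and SMAD5 among the latter. The CAGA box AGCCAGAC was in 1 member promoter, that of TGFB3, and in 1.28% of all. The element of GFI1, a longer motif around the core AATC that was searched on both strands, was in 0 of the 43 and in 0.883% of all promoters, which says only that these letters are not in the windows. A match describes letters in the window and not a bound site.

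Among the 7 TGF-beta and activin ligands, 5 passed the filter, of which 4 were higher and none lower in the libraries labelled GFI1-KO. The shares over all tested genes were 36.5% higher and 35.9% lower. TGFB1, the main TGF-beta of epithelial tumours, had 858, 923 and 891 normalized counts in libraries labelled WT and 2849, 2731 and 2846 in those labelled GFI1-KO. Replicates lay close together and the groups far apart, by 1.66 ± 0.04 on the log2 scale (3.15-fold, adjusted p = 1.3e-21). After the GC correction the difference was 1.02. TGFB1 (chr19:41301587-41353911, minus strand) overlaps HNRNPUL1 and CCDC97 on the opposite strand, and the strand setting of the counting is not given, so reads of these genes may be shared. The same limit holds for TGFB3 (with IFT43), BMP8B (PPIE), ACVR2A (ORC4), SMURF1 (TRRAP) and SMURF2 (CEP95). Each of these overlaps a gene of like or higher count on the opposite strand. INHBE, an activin subunit best known from liver, went from 323, 339.8 and 351 to 714, 732 and 708 normalized counts. The groups did not overlap, at a difference of 1.09 ± 0.07 (adjusted p = 5.8e-14) and 0.83 after the correction, although 13.5% of the 50-base words of INHBE also occur in other genes, which makes its counts uncertain. INHBA, the subunit of activin A, had 12.3, 11.1 and 6.30 against 20.0, 26.5 and 35.8 normalized counts. This low level was higher in all 3 libraries labelled GFI1-KO (1.46 ± 0.36, adjusted p = 7.9e-04, corrected 2.02). GDF11, a ligand close to myostatin, was higher by 0.45, and by 0.58 after the correction. TGFB3 differed by 0.01 ± 0.21 (adjusted p = 0.974, corrected -0.07). It had 77.2, 60.6 and 42.4 normalized counts in the libraries labelled GFI1-KO, around the 57.3 to 60.9 of those labelled WT.

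Of the 6 BMP ligands among the members, 4 passed the filter, of which 2 were lower and none higher in libraries labelled GFI1-KO. The shares over all tested genes were 35.9% lower and 36.5% higher. BMP5 had 1554, 1664 and 1504 normalized counts in libraries labelled WT and 1128, 1088 and 1067 in those labelled GFI1-KO. All libraries labelled GFI1-KO were lower, by 0.52 on the log2 scale (adjusted p = 2.0e-10), but the transcript has 36.2% GC and the corrected value was 0.04 (adjusted p = 0.477). BMP8B went from 583, 506 and 519.6 to 315, 343 and 358 normalized counts. This decrease, of -0.66 on the log2 scale (adjusted p = 1.5e-08), was -0.95 after the correction. However, 15.6% of the 50-base words of BMP8B also occur in other genes, among them its near copy BMP8A. BMP8A, a listed component with few counts, went the other way (0.86, edgeR adjusted p = 0.0409). It was not called by DESeq2 (adjusted p = 0.0984) or after the correction (0.36, adjusted p = 0.417). BMP7 and BMP6 were not called (-0.38, adjusted p = 0.0539, and -0.61, adjusted p = 0.227), and 1 of the 3 BMP7 values labelled WT, 133, stood above the other two at 79.7 and 92.4. Without WT replicate 2 or 3, BMP7 was called lower (-0.53 and -0.46), and likewise after the GC correction (-0.67, adjusted p = 0.00215). BMP2 had no count in the libraries labelled WT and 3 in those labelled GFI1-KO, and BMP4 had 9 and 25 over the 3 libraries (95% Poisson intervals 4.12 to 17.1 and 16.2 to 36.9, counting error only).

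Per transcript length, the leading ligand among the members changed between the groups. In FPKM, BMP5 was highest among the member ligands of both arms in the libraries labelled WT, at 24.2, above TGFB1 at 16.7 and GDF11 at 8.26. In the libraries labelled GFI1-KO, TGFB1 was highest at 52.1, above BMP5 at 16.6 and INHBE at 14.3. The summed FPKM of the 7 TGF-beta and activin ligands was 31.8, 33.3 and 32.7 in the libraries labelled WT and 79.9, 77.2 and 78.6 in those labelled GFI1-KO. For the 6 BMP ligands it was 33.0, 33.2 and 31.0 against 22.2, 22.1 and 21.8. The member ligands of both arms thus stood at about the same summed level in the libraries labelled WT. They stood apart in those labelled GFI1-KO, where the sums were 2.41 and 0.681 times as high. These sums carry no GC correction, after which BMP5 differed by 0.04 (adjusted p = 0.477) and TGFB1 by 1.02 on the log2 scale. TGFB1 and BMP5 make up most of these sums. The sums cover the members only, and which ligands are listed bears on them. AMH, a ligand among the other listed components, is in neither sum, and no sum with it was made. Its level was 10.9 FPKM in the libraries labelled WT and 19.5 in those labelled GFI1-KO, where it was above BMP5. The difference was 0.86 (edgeR adjusted p = 4.3e-10) and 0.05 after the correction (adjusted p = 0.565), a point noted after its values were seen. GDF15, a distant member that signals through GFRAL and is known as a stress-induced cytokine, stood outside both sums and had 317, 345 and 293 against 977, 904 and 994 normalized counts. It was higher in every library labelled GFI1-KO, by 1.59 ± 0.07 on the log2 scale (adjusted p = 5.1e-17) and by 0.89 after the correction. In FPKM, GDF15 stood at 9.26 in the libraries labelled WT, above GDF11. In those labelled GFI1-KO it stood at 27.6, above BMP5 and below TGFB1.

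Proteins that hold ligands in the matrix or bind them outside the cell were mixed. LTBP1 and LTBP2 belong to the latent TGF-beta binding protein family, of which LTBP1 tethers the latent growth factor. LTBP1 had 41.0, 57.6 and 53.5 against 140.1, 120.3 and 106 normalized counts, and LTBP2 93.2, 121 and 81.9 against 202, 236 and 237. Both rose with no overlap of the groups, by 1.27 ± 0.17 and 1.19 ± 0.13 (adjusted p = 3.1e-07 and 6.9e-09), and by 1.26 and 0.92 after the correction. LTBP3 and LTBP4, which have 67.7% and 66.7% GC, were higher by only 0.19 and 0.15, and were lower after the GC correction, at -0.39 and -0.43. Neither was called without WT replicate 3 (0.13 and 0.08). FSTL3, a secreted follistatin-like protein that traps activins, had 71.7, 91.9 and 92.4 normalized counts in libraries labelled WT and 454, 425 and 457 in those labelled GFI1-KO. That is the largest rise of the TGF-beta and activin arm among its tested members, at 2.39 ± 0.10 (adjusted p = 7.5e-17) and 1.73 after the correction. Follistatin itself, FST, had no count in any library, which allows up to 3 counts in a library.

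Of the 3 BMP antagonists among the members, only CHRD passed the filter. CHRD, the chordin that sequesters BMPs, was lower by 0.23 on the log2 scale (565, 535 and 569 against 463, 451 and 511 normalized counts, adjusted p = 0.00409), and its corrected value was -0.77. BMP1, a protease that cleaves chordin and procollagens, had 506, 571 and 490.2 against 989, 993 and 1066 normalized counts, a difference of 0.96 ± 0.06 (adjusted p = 2.3e-13) and 0.53 after the correction. NOG had 2 counts in all over the libraries labelled WT and 11 over those labelled GFI1-KO, and GREM1 33 and 18. Both fell below the filter, as did TGFB2 with 2 and 8 counts and INHBB with 8 and 26, so that no difference was tested for them.

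Among the receptors and signalling SMADs, the GC correction changed many directions. Without the correction, 4 of the 18 receptors, co-receptors and signalling SMADs were higher and 13 lower, beside 36.5% and 35.9% of all tested genes. The median log2 fold change of the 18 was -0.39 and their median GC content was 40.7%, against 48.2% over all tested genes. With the correction 9 of the 18 were higher and 5 lower, beside 36.8% and 25.4% of all tested genes. The median was then 0.09 against 0.07 for all genes. The summed FPKM of the 6 TGF-beta arm receptors and SMADs was 44.9, 43.5 and 46.3 in the libraries labelled WT and 31.4, 31.8 and 30.6 in those labelled GFI1-KO. For the 9 of the BMP arm it was 60.2, 58.9 and 60.9 against 53.0, 49.5 and 51.9.

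In the TGF-beta arm, all 6 were lower, with a median of -0.60 on the log2 scale, beside 35.9% of all tested genes called lower. After the correction 4 were lower and 1 higher, beside 25.4% and 36.8% of all tested genes. TGFBR1, the type I receptor for TGF-beta, had 2306, 2233 and 2397 normalized counts in libraries labelled WT and 1420, 1326 and 1347 in those labelled GFI1-KO. The groups were well apart at a difference of -0.76 ± 0.04 (adjusted p = 9.6e-15), of which -0.20 was left after the correction (adjusted p = 7.5e-05). TGFBR2, the type II receptor that binds TGF-beta first, had 153, 141 and 148 against 70.5, 92.9 and 76.2 normalized counts. It was lower by 0.88 ± 0.14 (adjusted p = 3.9e-06), with a corrected value of -0.54. TGFBR3, betaglycan, a co-receptor that presents TGF-beta to the receptors, had 236, 239 and 298 against 138, 105 and 108 normalized counts. The decrease, -1.14 ± 0.12 (adjusted p = 5.9e-09), was the largest of any tested member, and -0.69 after the correction. ACVR1B, the activin type I receptor, was lower by 0.21, with 1295, 1208 and 1253 against 1046, 1136 and 1065 normalized counts, and by 0.30 after the correction. SMAD2 went from 1822, 1902 and 1846 to 1306, 1406 and 1395 normalized counts, which is -0.44 on the log2 scale (adjusted p = 7.8e-10), but its corrected value was 0.15. SMAD3 had 609, 631 and 684 against 597, 601 and 529 normalized counts, a small difference of -0.16 ± 0.07 (edgeR adjusted p = 0.0373) that DESeq2 did not call (adjusted p = 0.0742), nor edgeR without WT replicate 3 (-0.12) or GFI1-KO replicate 3 (-0.10). Its corrected value of -0.14 was not called either (adjusted p = 0.0569).

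In the BMP arm, 4 of 9 receptors and SMADs were higher and 4 lower (median -0.06), beside 36.5% and 35.9% of all tested genes. After the correction 8 were higher and none lower, beside 36.8% and 25.4% of all tested genes. SMAD9, a receptor SMAD of the BMP type I receptors, had 100.3, 99.6 and 103 normalized counts in libraries labelled WT and 400.2, 423 and 419 in those labelled GFI1-KO. Replicates were tight in both groups and the difference was 2.03 ± 0.10 (adjusted p = 3.4e-16) and 2.38 after the correction. The other receptor SMADs of the same arm did not follow it. SMAD5 went from 2744, 2700 and 2792 to 1846, 1722 and 1817 normalized counts (-0.61, adjusted p = 1.2e-13), and SMAD1 from 444, 451 and 463 to 378, 335 and 337 (-0.37, adjusted p = 8.0e-05), while their corrected values were 0.03 (adjusted p = 0.422) and 0.17. In FPKM, SMAD5 stayed above SMAD9 in both groups, at 18.4 against 1.07 in the libraries labelled WT and 11.9 against 4.34 in those labelled GFI1-KO.

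Among BMP type I receptors, BMPR1B had 128, 141 and 113 against 246, 188 and 202 normalized counts. All libraries labelled GFI1-KO were higher, by 0.74 ± 0.12 (adjusted p = 7.3e-06), and the corrected value was 1.30. ACVRL1, also called ALK1, an endothelial receptor for BMP9 and BMP10, had 45.1, 67.5 and 63.0 against 140.1, 136 and 131 normalized counts. It was higher by 1.21 ± 0.16 (adjusted p = 1.7e-07, corrected 0.82). Its co-receptor ENG, endoglin, was higher too, at 8.19, 7.75 and 6.30 against 30.5, 16.1 and 29.2 normalized counts (1.75 ± 0.38, adjusted p = 2.2e-04, corrected 1.17). ENG shares its place with a gene on the opposite strand of like count, so reads of the pair may be mixed. Of the 2 tested endothelial and leukocyte markers, PECAM1 was lower beside these, from 478, 464 and 422 to 212, 200 and 215 normalized counts (-1.12), and CDH5 had 22.5, 14.4 and 23.1 against 32.4, 19.9 and 31.1 (0.47, adjusted p = 0.176). PECAM1, at 3.56 and 1.62 FPKM, made up most of the summed level of these markers, and the part of such cells in the difference was not tested. BMPR1A, the most abundant BMP type I receptor per length at 9.68 and 9.16 FPKM, differed by -0.06 ± 0.04 (adjusted p = 0.171), with 1906, 1740 and 1817 against 1764, 1738 and 1726 normalized counts, and was called lower without WT replicate 2 (-0.10). After the correction it was higher by 0.51, and 13.4% of its 50-base words occur in other genes, so its counts are uncertain. ACVR1 went from 432, 408 and 479 to 358, 367 and 372 normalized counts (-0.27, corrected 0.23). BMPR2, the BMP type II receptor, went from 3472, 3425 and 3430 to 2729, 2386 and 2664 (-0.41, corrected 0.18). For both, the groups did not overlap and the correction turned the direction.

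Of the members that serve both arms, SMAD4 went from 2557, 2436 and 2579 to 1742, 1623 and 1764 normalized counts (-0.56 ± 0.04, adjusted p = 2.4e-12), with a corrected value of -0.05 (adjusted p = 0.238). The activin type II receptor ACVR2B went from 837, 824 and 791 to 489, 493 and 503 (-0.72 ± 0.06, adjusted p = 2.2e-11) and kept -0.43 after the correction. ACVR2A, with 367, 315 and 364 against 188, 215 and 188, was lower by 0.83 ± 0.09 (adjusted p = 1.3e-08), but its corrected value of -0.19 was not called (adjusted p = 0.0731). It overlaps ORC4 on the opposite strand, so reads of the pair may be mixed. The ubiquitin ligases SMURF1 and SMURF2, which mark receptors and SMADs for degradation, differed by 0.11 (adjusted p = 0.0985) and -0.33 (adjusted p = 4.1e-05, corrected 0.11). The SMAD corepressors SKI and SKIL differed by 0.33 and -0.32, and by -0.14 and 0.35 after the correction, so that each changed its sign.

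**Figure D4:**
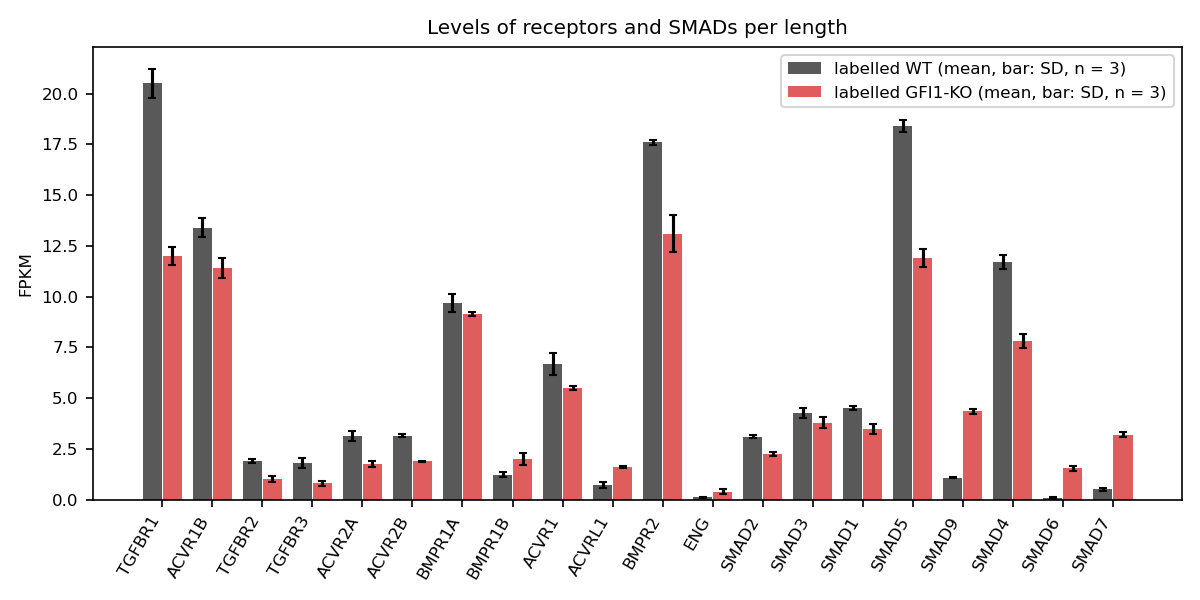
FPKM (y axis, mean of 3 libraries, bars are SD) of the receptors, co-receptors and SMADs in libraries labelled WT and labelled GFI1-KO. TGFBR1, BMPR2 and SMAD5 are the most abundant in the libraries labelled WT, at 20.5, 17.6 and 18.4 FPKM, while SMAD9, SMAD6 and SMAD7 rise from 1.07, 0.0783 and 0.495 to 4.34, 1.53 and 3.20 FPKM.

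Set side by side, the TGF-beta and activin arm had 10 members higher and 7 lower of 18 tested (median 0.17), and the BMP arm had 5 higher and 7 lower of 15 tested (median -0.27). These counts stand beside 36.5% higher and 35.9% lower of all tested genes. After the correction the arms had 10 and 6 (median 0.25) and 9 and 3 (median 0.18), beside 36.8% and 25.4% of all tested genes. No test of arm against arm was made. The groups were free of overlap in normalized counts for 39 of the 43 tested members, 21 with the libraries labelled GFI1-KO above and 18 below, and the share over all genes was 74.4%. The exceptions were TGFB3, BMP6, BMP7 and BMPR1A.

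The target genes of the BMP arm that were called were all higher in libraries labelled GFI1-KO. Of 17 listed genes, 13 passed the filter, of which 12 were higher and none lower (12 and none after the correction), beside 36.5% and 35.9% of all tested genes. Their median was 1.51 on the log2 scale. The list was chosen with earlier results of these data known, so its count is no test of the BMP arm. ID3, an inhibitor of basic helix-loop-helix factors, had 157, 133 and 132 normalized counts in libraries labelled WT and 2616, 2695 and 2717 in those labelled GFI1-KO, a difference of 4.25. ID1 went from 785, 707 and 790.4 to 5756, 5641 and 5851 (2.92). ID4 went from 116, 107 and 153 to 721, 749 and 745 (2.55), and ID2 from 1731, 1548 and 1505 to 5495, 5583 and 5475 (1.79). All 4 ID genes thus had groups far apart, and after the correction the differences were 2.33 for ID1, 1.52 for ID2, 3.78 for ID3 and 2.85 for ID4. The homeobox genes MSX2 and DLX2, the haematopoietic factor GATA2 and the factor ATOH8 were also higher, by 2.27, 1.80, 1.51 and 1.33. DLX3, below the filter, had 13.3, 17.7 and 8.40 against 0.953, 0.948 and 0 normalized counts, and is the gene that is called lower where the filter lets it in, a point noted after its values were seen.

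**Figure D5:**
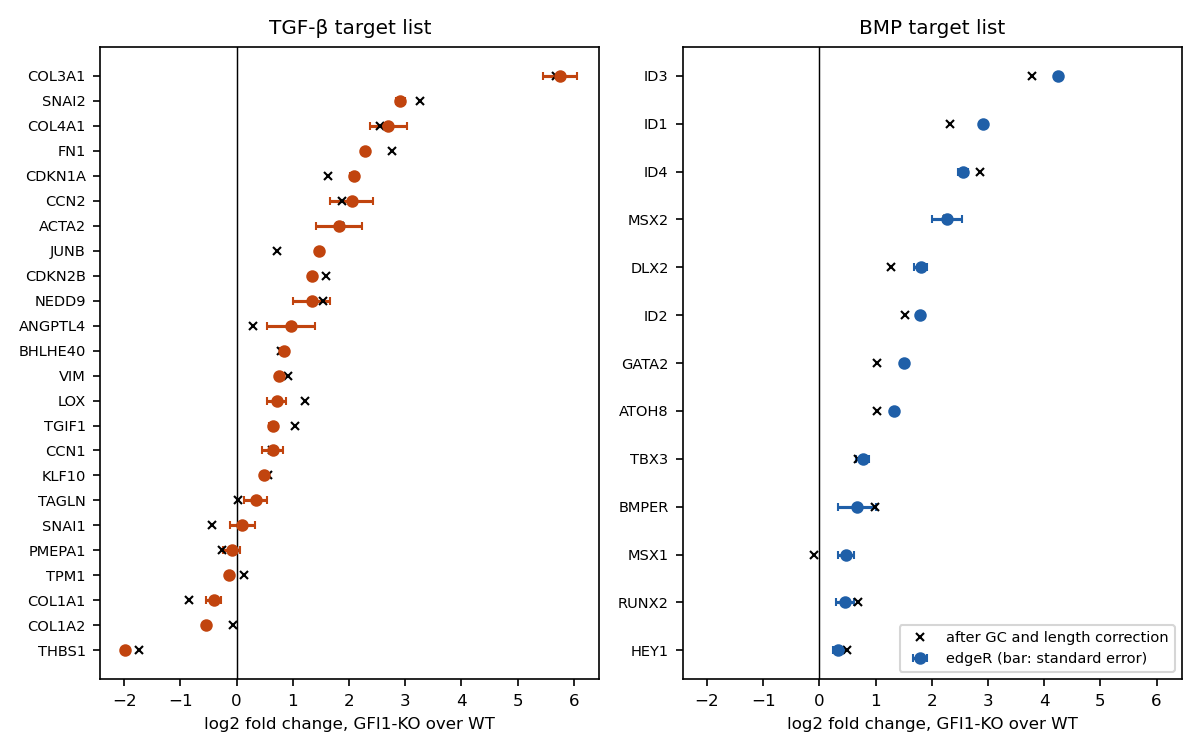
Log2 fold change (x axis, libraries labelled GFI1-KO over WT, bars are standard errors from edgeR) of tested genes from the TGF-beta target list and the BMP target list, with values after the GC and length correction as crosses. ID3 reaches 4.25 among the BMP targets, and THBS1 is lowest among the TGF-beta targets at -1.99.

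Of the 25 TGF-beta targets listed, all of which passed the filter, 18 were higher and 4 lower (18 and 2 after the correction), beside 36.5% and 35.9% of all tested genes. Their median was 0.84, and 11 were higher and 1 lower by at least 1 on the log2 scale, beside 10.2% and 7.29% of all. This list too was chosen with earlier results of these data known, so its count is no test of the TGF-beta arm. TGFBI, a matrix protein named for its induction by TGF-beta and itself a member, had 41.0, 39.9 and 44.1 against 135, 148 and 127 normalized counts (1.71 ± 0.16, adjusted p = 4.8e-10, corrected 1.74). The fibrillar collagen gene COL3A1 rose from 2.05, 3.32 and 2.10 to 123, 136 and 160 (5.75), and the fibronectin gene FN1 from 2349, 2368 and 2268 to 11690, 11392 and 10984 (2.29). SNAI2, a repressor of epithelial genes, and COL4A1, a basement membrane collagen, were higher by 2.91 and 2.70. The cell cycle inhibitor CDKN1A, the matricellular gene CCN2 and the smooth muscle actin gene ACTA2 were higher by 2.08, 2.05 and 1.82. THBS1, whose protein can activate latent TGF-beta, had the largest decrease of the 4 called lower, from 7413, 7446 and 7484 to 1865, 1886 and 1888 normalized counts (-1.99). COL3A1 is also 1 of the 7 fibroblast markers, which went both ways. PDGFRA was higher with it (3.66), and PDGFRB, COL1A2 and COL1A1 were lower (-3.24, -0.54 and -0.41), of which COL1A2 made up most of the summed level, at 15.8 and 10.8 FPKM. The part of other cells in these differences was not tested.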

How the data were processed

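RNA-Seq libraries of H1155 cells were compared as 3 labelled WT against 3 labelled GFI1-KO. The counts were deposited as the authors made them, without normalization, together with other deposited values per gene, its start, end and length. According to the study's methods, mRNA was selected with poly-T beads, reads were aligned with Hisat2 and counted with featureCounts, whereas the submitters' processing notes name Bowtie2, HTSeq and hg38. The annotation for counting, the strand setting and the rule for reads with several matches are not given in the sources used here. Of the 58735 genes, 58207 (99.1%) have a GENCODE 44 transcript, from which GC content was taken.

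Counts were tested with edgeR 4.0.16 in R 4.3.3 (TMM factors, filterByExpr, quasi-likelihood F test, Benjamini-Hochberg adjustment over the 17514 genes tested, adjusted p of at most 0.05, and a second rule with an absolute log2 fold change of at least 1). Standard errors are log2 fold changes divided by the root of F, without sign. FPKM was computed from counts, deposited lengths and library totals. Library totals were 14882914 to 17692882 counts, and Poisson intervals (95%) cover counting error only, reads being no independent molecules after PCR. Corrected values use offsets from natural splines (5 degrees of freedom) of GC content and log length for each library. Other alternatives were DESeq2 1.42.0, limma-voom (limma 3.58.1), upper-quartile or median-of-ratios factors, no factors (library size alone), testing without the filter, at least 10 counts in every library, an adjusted p of at most 0.01, the replicate number as a block, each library left out, and another assignment of members to arms. Any member could be named. From the target and component lists, genes past the second rule were named, at most 8 in each direction by size, and some listed genes are not reported here. The members and lists were chosen with earlier results of these data known. The steps were tested on simulated data.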

Additional observations from a re-analysis of the deposited data

How the results depend on the processing

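The GC and length correction, alone and together with the replicate block, was the setting that moved most results. With it the members called lower went from 18 to 11, those lower by at least 1 on the log2 scale from 1 to 0, the BMP arm from 5 higher to 9 (8 with the block as well) and from 7 lower to 3, TGF-beta targets lower from 4 to 2, and other pathway components lower from 23 to 11. Among members called with or without it, it turned the direction of 12, to -0.39 for LTBP3 (-0.38 with the block as well), -0.43 for LTBP4 (-0.42), 0.15 for SMAD2, 0.35 for SKIL, 0.04 for BMP5, 0.51 for BMPR1A, 0.23 for ACVR1, 0.18 for BMPR2, 0.17 for SMAD1 (0.16), 0.03 for SMAD5, 0.11 for SMURF2 and -0.14 for SKI on the log2 scale. Over all tested genes, the share called lower went from 35.9% to 25.4% with the correction. The cause was not tested.

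Outside that correction, 1095 values of 74 named single genes were compared, none of those called in either setting changed direction, and 21 crossed the threshold, among them GFI1, SMAD3, LTBP3, LTBP4, BMP7 and BMPR1A. TGFB3, called in no setting, lay between -0.21 and 0.21. SMAD3 was not called without WT replicate 3 (-0.12) or GFI1-KO replicate 3 (-0.10), LTBP3 and LTBP4 not without WT replicate 3 (0.13 and 0.08), BMP7 was called without WT replicate 2 or 3 (-0.53 and -0.46), BMPR1A was called without WT replicate 2 (-0.10), and GFI1 was not called without WT replicate 2 or 3 or GFI1-KO replicate 2 (0.21, 0.28 and 0.27). With at least 10 counts in every library the BMP arm had 3 higher, since low members were left out. With each library left out, members called were 18 to 20 higher and 17 to 21 lower, and those past a log2 fold change of 1 were 14 to 15 higher and 1 to 2 lower (2 without WT replicate 2). The BMP targets called lower, none in the values reported, were 1 without the filter and 0 to 1 with a library left out.

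The labels give both groups the numbers 1 to 3, and deviations of same-numbered libraries correlated at -0.00355, 0.0166 and 0.0235. No shared deviation by number was seen, which cannot show whether same-numbered libraries were prepared together. With the replicate block, 20 members were higher and 18 lower, and no call of the 74 genes changed. Among the other pathway components, 22 in place of 23 were then lower. At these depths members with few counts, such as BMP2, NOG and TGFB2, could not be tested.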

Other observations

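Beyond the 50 members, 75 other components of the pathway were listed, of which 47 passed the filter. Of these, 16 had higher and 23 lower counts under the label GFI1-KO (21 and 11 after the GC correction), beside 36.5% and 35.9% of all tested genes. The median log2 fold change was -0.12, and 6 were higher and 4 lower by at least 1, beside 10.2% and 7.29%. As for the other lists, earlier results of these data were known when it was chosen. HJV, hemojuvelin, a BMP co-receptor known from liver, had 2.05, 0 and 2.10 against 48.6, 54.0 and 39.5 normalized counts. NBL1, an antagonist of BMPs, had 58.4, 60.9 and 52.5 against 358, 296 and 282 (2.45), and FSTL1, a follistatin-like glycoprotein, 6.14, 18.8 and 11.5 against 74.3, 73.9 and 86.6 (2.69). All 3 had groups that did not overlap. The protease gene TLL2, a relative of BMP1, was higher by 2.07, CTDSP1, a phosphatase of SMADs, by 1.5, and STUB1, a ubiquitin ligase, by 1.07. After the correction the differences were 2.19 for TLL2, 1.02 for CTDSP1 and 0.35 for STUB1.

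On the lower side, CHRDL1, a chordin-like antagonist of BMPs, had 66.6, 46.5 and 45.1 against 0, 0.948 and 6.59 normalized counts (-4.32). FSTL4 had 68.6, 85.2 and 52.5 against 10.5, 2.84 and 10.4 (-3.10). The corepressor TGIF2 was lower by 1.42, and ACVR1C, the type I receptor for nodal, by 1.18, with a corrected value of -0.49 that was not called (adjusted p = 0.0557). Secreted antagonists of BMPs stood on both sides, NBL1 higher and CHRDL1 and CHRD lower.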
